A study of Mus musculus with 12 samples.

Results

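Convergent gene pairs are neighbours that are transcribed toward each other, so that their 3′ ends face. Replication forks move away from sites where they start and meet where they end, and transcription can run with or against a fork. In cells whose forks often start at promoters, forks leaving the promoters of a convergent pair travel with transcription and approach the facing ends from both sides. OK-seq reads this geometry. Okazaki fragments are the short pieces from which the lagging strand is built, and a region copied by rightward forks yields Crick reads while one copied by leftward forks yields Watson reads. A Crick share that falls from left to right across a site is therefore the pattern of forks that meet, and a rising share is the pattern of forks that start.

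Pairs were taken from the 20807 autosomal protein-coding genes of GENCODE M21 (mm10), with the plus-strand gene on the left, the minus-strand gene on the right, ends 0 to 20 kb apart and no overlap. Of 10025 neighbouring pairs with such a gap, 2564 were convergent, 5424 were tandem (same strand) and 2037 were divergent (minus left, plus right). The site was the midpoint between the facing ends, with a median gap of 3875 bp. A total of 2528 convergent sites had at least 10 reads on each side in every library and were measured, and the other 36 did not. In 288 of the 2564 gaps lay another annotated gene.

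OK-seq tracks of mouse naive ESCs and of EpiLCs, the formative cells made from them by withdrawing LIF and the inhibitors that hold the naive state, were compared in 3 genotypes. The KMT2C KO control lacks KMT2C. The KMT2C/D dKO (dKO) also lacks KMT2D, removed by a 4-hydroxytamoxifen-induced Cre from the same conditional ES line. The KMT2C/D dCD (dCD) carries catalytically dead KMT2C and KMT2D and comes from another ES line (R1), so that line and mutation cannot be told apart. KMT2C and KMT2D place H3K4me1 at enhancers, and all 3 genotypes lack KMT2C activity. The 12 samples gave 6 tracks, because the 2 biological replicates of a condition are summed in the deposited values. No error between replicates can be had, each comparison of conditions is between single summed libraries, and the 95% intervals cover counting error only.

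Naive libraries held 3655095 to 4409068 reads and EpiLC libraries 11407678 to 13601460, a mean of 37.0 to 44.6 and of 115 to 138 reads per 25 kb. Strand bias was computed from windows of 25 kb on both sides of a site, as the right window's Crick percentage less the left window's, in percentage points. Over 92429 autosomal positions 25 kb apart its mean lay between 0.006 and 0.020 points in the 6 libraries.

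The pair with the lowest strand bias in the naive libraries was Cse1l/Stau1 on chromosome 2, and that with the highest was Lyn/Rps20 on chromosome 4. The facing 3′ ends of Lyn/Rps20 are shown to define what a site is, with the last 30 annotated bases of each gene on its own strand (mm10, GRCm38.p6) and the polyadenylation hexamers AATAAA and ATTAAA in capitals. Cse1l encodes the export receptor of importin alpha, Stau1 a dsRNA-binding protein, Lyn a Src family kinase and Rps20 a protein of the small ribosomal subunit.
Lyn, chr4:3813093-3813122, plus strand: gggttctcttaacgagagagggataagagt
Rps20, chr4:3831334-3831363, minus strand: cAATAAAaattaaccatttaaaaatataaa
On the gene's strand AATAAA lay in the last 40 bases of 58.2% of the 5128 convergent gene ends and of 56.9% of all 20807 gene ends, and ATTAAA without AATAAA in 13.4% and 12.7%. Convergent ends thus carried these hexamers about as often as gene ends in general.

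What sets convergent sites apart in sequence is the base content of their flanks. The T minus A content of the reference strand, in percent of bases, averaged 1.22 in the 25 kb on the left and -1.23 on the right, and it was lower on the right at 1973 of 2528 sites (78.05%). The difference between the sides, right minus left, was -2.44 points at convergent, 0.18 at tandem and 3.26 at divergent sites. The coding strand of transcribed genes is known to hold more T than A, and the 2 genes of a convergent pair have their coding strands on opposite strands of the DNA.
The contrast is shown for Cse1l/Stau1 by the stretch of 120 bases with the most T in the most T-rich intronic kilobase of the left side and the one with the most A in the most A-rich intronic kilobase of the right side, both on the plus strand of mm10, with T in capitals in the first and A in the second.
Cse1l intron, chr2:166925861-166925980: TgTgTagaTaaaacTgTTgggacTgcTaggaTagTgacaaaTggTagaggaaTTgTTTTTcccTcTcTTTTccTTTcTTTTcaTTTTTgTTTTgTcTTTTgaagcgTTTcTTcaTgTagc
Stau1 intron, chr2:166968581-166968700: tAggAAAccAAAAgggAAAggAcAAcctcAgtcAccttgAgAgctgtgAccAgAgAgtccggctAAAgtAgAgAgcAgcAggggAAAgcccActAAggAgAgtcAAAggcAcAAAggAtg
The first holds 54 T and 23 A and the second 13 T and 46 A. Over the whole kilobases T minus A was 12.2% and -14.3%, and the 3 EpiLC libraries, whose reads did not choose the pair, together gave 21 Crick and 10 Watson reads in the first against 4 Crick and 6 Watson reads in the second. These counts are too few for a comparison of the stretches.

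As counted, the Crick share fell across convergent sites in every library. In naive cells it went from 51.2% on the left to 49.1% on the right in the control, from 50.7% to 49.7% in the dKO and from 50.8% to 49.8% in the dCD. In EpiLCs it went from 50.5% to 49.6%, from 50.7% to 49.5% and from 50.5% to 49.8%. The mean strand bias was -2.14 points (counting SE 0.18, n = 2528 sites) in the naive control, -1.01 (0.20) in the naive dKO and -0.98 (0.20) in the naive dCD. It was -0.90 (0.12), -1.22 (0.11) and -0.78 (0.11) in the same genotypes as EpiLCs. The 6 values shared a sign, which gave p = 0.03125 by the exact two-sided sign-flip permutation test over the 6 libraries, the smallest it can give (0.0446 after Benjamini-Hochberg adjustment over 10 such tests). The libraries are different conditions read at the same sites and sequence. Such a p therefore measures neither the spread between replicates nor that between sites. The bias was negative on 19 of 19 autosomes in the naive control and the EpiLC dKO, and on 15 to 17 in the other libraries. The size and sign depended on the window: in 10 kb windows the 6 values ran from -2.87 to -1.31 points, with a median of -2.09 (exact sign-flip p = 0.03125), and in 50 kb windows the 6 values ran from -0.13 to 1.09 points, with a median of 0.74 (exact sign-flip p = 0.0625).

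Orientation separated the pairs widely. Tandem sites rose by 3.13 to 3.72 points in the naive and by 2.62 to 3.08 in the EpiLC libraries, and divergent sites, which hold both promoters, by 9.55 to 10.3 and by 6.46 to 7.39. Convergent minus tandem ranged from -5.54 to -3.52 points and was negative in 6 of 6 libraries (exact sign-flip p = 0.03125). Convergent minus divergent ranged from -12.3 to -7.36 (6 of 6, exact sign-flip p = 0.03125).

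The same 3 classes were also ordered by T minus A content, and over the autosomes bins of 1 kb held more Crick reads than bins 3 to 12 kb away where they held more T than A. The slope (Crick fraction on T minus A fraction) was 1.76, 1.70 and 1.82 in the naive control, dKO and dCD and 1.20, 1.37 and 1.41 in the EpiLC libraries. It was 1.72 to 1.85 and 1.23 to 1.45 in bins more than 50 kb from any protein-coding gene, and 1.70 to 1.84 and 1.15 to 1.39 within 25 kb of convergent sites. All values were therefore also computed with this part taken off: the Crick reads that slope and base content give a bin were moved to the Watson strand, with the bin's total kept.

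With the T minus A part off, the fall across convergent sites became a rise in all 6 libraries. The bias was 2.10 (0.19), 3.09 (0.20) and 3.37 (0.20) points in the naive control, dKO and dCD, and 2.07 (0.12), 2.13 (0.11) and 2.61 (0.11) in the EpiLC libraries (exact sign-flip p = 0.03125). It was negative on 0 of 19 autosomes in each library. Tandem sites changed little, to between 2.37 and 3.21 points. Convergent minus tandem then ranged from -0.85 to 0.41 points, negative in 4 of 6 libraries (exact sign-flip p = 0.469). With the slope fitted on the bin itself it was -1.54 to -0.26, negative in 6 of 6 (exact sign-flip p = 0.03125). With the first slope it was -0.85 (95% interval -1.30 to -0.40) in the naive control and -0.31 (-0.59 to -0.02) in the EpiLC control, and the interval included 0 in the 4 mutant libraries. Convergent minus divergent stayed negative in 6 of 6 libraries, between -2.03 and -0.10 points (exact sign-flip p = 0.03125), though in the EpiLC dCD the interval was -0.42 to 0.22. How much of the slope comes from fork direction itself was not tested.

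**Figure D1:**
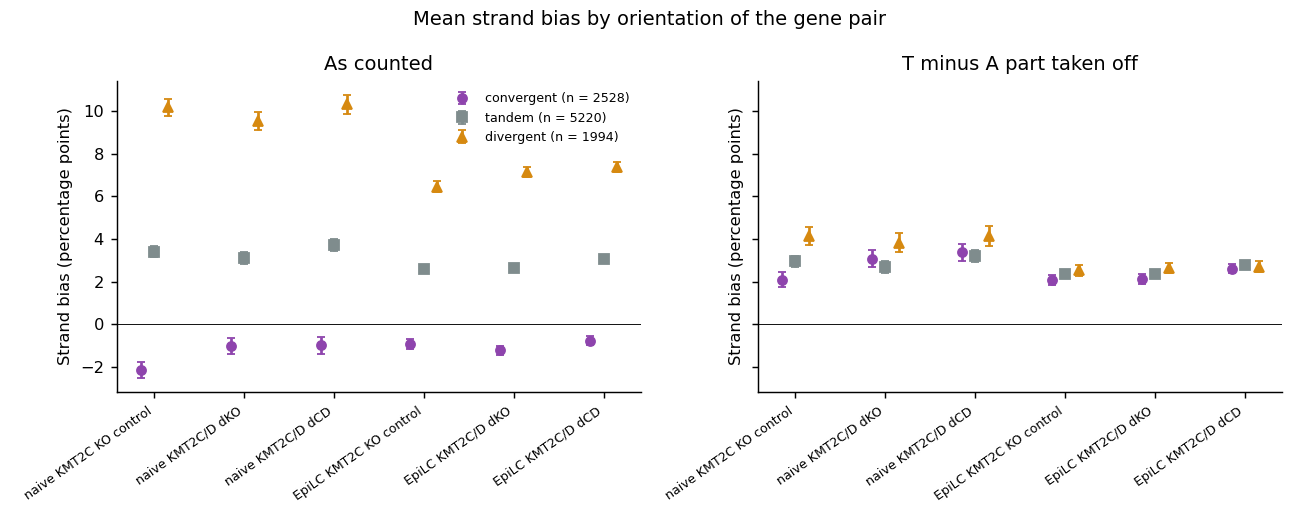
Mean strand bias in percentage points (y) of convergent, tandem and divergent gene pairs in the 6 libraries (x), as counted on the left and without the T minus A part on the right. Bars are 95% counting intervals; convergent values lie below 0 in all 6 libraries on the left and between 2.07 and 3.37 on the right.

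The reads as counted, grouped by the T minus A difference between the sides, show the same relation without any slope. Where T minus A content differed by less than 1 point (421 convergent sites), strand bias was 2.68 (0.45), 3.78 (0.47) and 3.13 (0.48) points in the naive control, dKO and dCD, and 2.06 to 3.03 in the EpiLC libraries. At 1412 tandem sites of the same stratum it was 2.25 to 3.63 and at 282 divergent sites 2.35 to 3.53 over the 6 libraries. At the 637 convergent sites with a difference of -4 to -2 points the bias was -2.95 to -1.07, at 445 sites between -6 and -4 it was -7.21 to -4.20, and at 317 sites under -6 it was -12.9 to -8.15. Tandem sites in those 3 strata gave -2.42 to -1.04, -7.25 to -3.46 and -13.05 to -8.18. The ranges of the 2 orientations overlapped in each of these strata, but they span both states, which makes overlap likely. Within a library the values could differ. Between -6 and -4 the EpiLC dKO gave -4.98 (0.26) at convergent and -3.98 (0.32) at tandem sites, and the EpiLC dCD -4.20 (0.25) and -4.32 (0.32). The ranges did not overlap between -2 and -1, where convergent sites gave 0.63 to 1.24 and tandem sites -0.61 to 0.08. Over 1 the order was turned in each of the 6 libraries. Naive cells gave 6.51 to 7.93 at convergent and 8.40 to 9.77 at tandem sites, and EpiLCs 4.35 to 5.39 and 6.68 to 7.48. The mean T minus A difference of these sites was 2.63 at convergent and 3.30 at tandem pairs. The orientations also differed in how many of their sites each stratum held: 12.5% of convergent and 3.20% of tandem sites were under -6, while 14.8% of convergent, 39.2% of tandem and 74.5% of divergent sites were over 1.

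**Figure D2:**
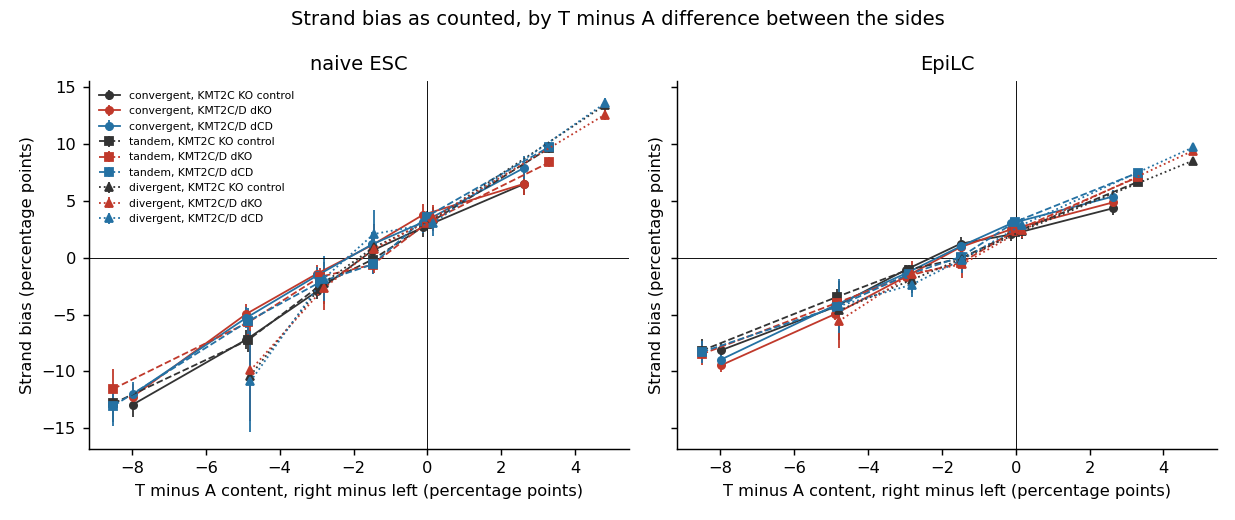
Mean strand bias as counted, in percentage points (y), against the mean T minus A difference between the right and left 25 kb, in percentage points (x), for strata of convergent, tandem and divergent sites in naive ESCs (left) and EpiLCs (right). Bars are 95% counting intervals; strand bias rises with the T minus A difference in all 3 orientations, with convergent sites between 2.06 and 3.78 near a difference of 0.

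The profile over 100 kb on each side, in bins of 5 kb, placed a local fall on a broad rise. The Crick share was 46.4% to 48.4% in the outermost bin on the left and 52.5% to 53.4% in that on the right, as across a region in which forks start. On the left it climbed to its highest bin, 51.8% (0.29) in the naive control, 51.9% (0.31) in the naive dKO and 52.0% (0.32) in the naive dCD, 2.5 to 7.5 kb before the site. It then fell to 48.1% (0.29), 48.9% (0.31) and 49.1% (0.32) within 12.5 kb to the right. In the EpiLC libraries the step was smaller, from 50.8% to 51.2% down to 49.1% to 49.2%. The highest left bin exceeded the lowest right bin by 3.63, 3.06 and 2.85 points in the naive control, dKO and dCD, and by 1.64, 1.961 and 1.99 in the EpiLC libraries. T minus A content peaked at 1.49% at 7.5 kb to the left and reached -1.54% at 12.5 kb to the right. With its part taken off, the Crick share at 2.5 kb to the left was 49.4% to 50.02% and at 2.5 kb to the right 50.4% to 51.1%, so that no bin on the left exceeded the lowest bin on the right. Read density at the site was 1.02 to 1.06 times the mean of the profile.

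**Figure D3:**
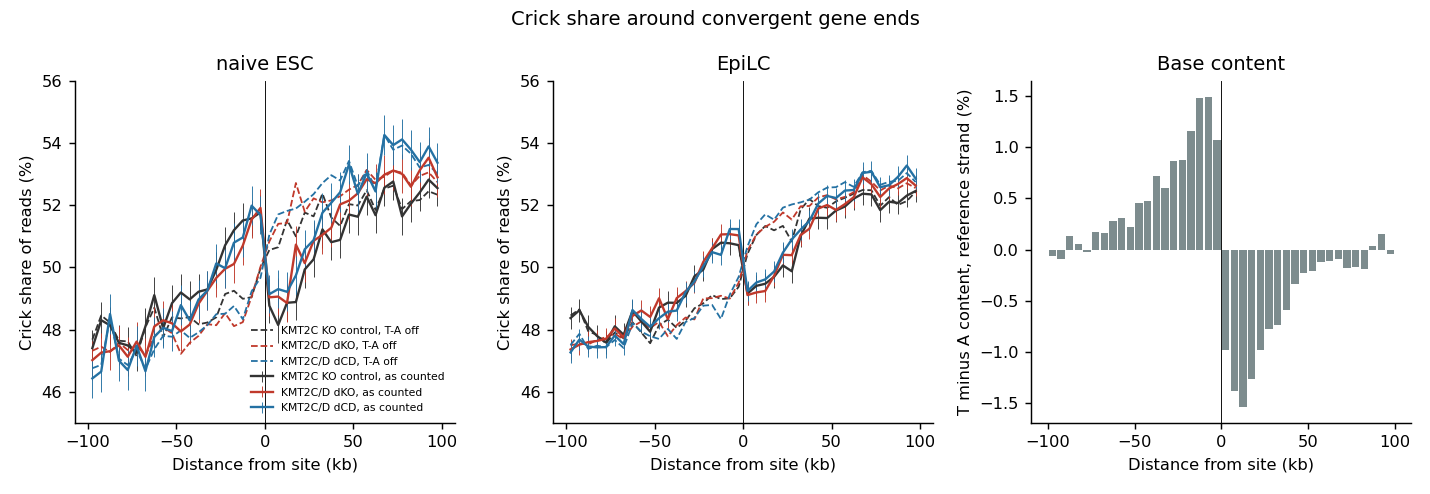
Crick share of the summed reads in percent (y) by distance from 2528 convergent sites in kb (x), in naive ESCs and EpiLCs, with solid lines as counted (bars, 95% counting error) and dashed lines with the T minus A part off; the third panel gives T minus A content in percent. Solid lines step down at the site, where base content changes sign, and dashed lines rise through it.

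The fall was wider and deeper at pairs of longer genes. With both genes at least 50 kb (188 pairs), the Crick share was highest 47.5 to 62.5 kb left of the site, at 57.3% to 58.1% in the naive and 55.0% to 56.3% in the EpiLC libraries. It was lowest 52.5 to 62.5 kb to the right, at 41.2% to 43.3% and 44.4% to 45.3%. The difference between these bins was 14.7 to 16.2 points in naive and 9.68 to 11.99 in EpiLC libraries. With the T minus A part off it was 4.94 to 6.68 points in naive and 3.03 to 4.08 in EpiLC libraries. It was above 0 in each of the 6, which the picking of bins alone can give. With the shorter gene at 25 to 50 kb (308 pairs), the fall was 9.54 to 10.97 and 6.82 to 7.44 points as counted, and 1.07 to 1.40 and 0.13 to 1.02 with the T minus A part off. With the shorter gene under 10 kb (1284 pairs) it was 2.36 to 3.27 and 1.61 to 2.07 points in the bins next to the site, and with the T minus A part off the lowest right bin lay above the highest left bin in each library. With the shorter gene at 10 to 25 kb (748 pairs) the fall was 5.53 to 7.29 points in naive and 3.46 to 3.84 in EpiLC libraries as counted, and with that part off the lowest right bin again lay above the highest left bin in each library, by 0.42 to 1.22 points. Among these, with both genes between 10 and 25 kb (208 pairs), the fall with that part off was 0.33 to 2.58 points in naive and -0.16 to 0.98 in EpiLC libraries. These maxima and minima were picked from 20 bins on each side, anew with the T minus A part off, and carry no test. Picking raises the difference, and more so where counting error is larger. The counting SE of a picked bin was 1.11 to 1.21 points in naive and 0.63 to 0.69 in EpiLC libraries at the 188 pairs. At the 1284 pairs it was 0.41 to 0.44 and 0.24 to 0.26. Depths with that part off are therefore not compared between length classes.

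In the 25 kb windows, the 496 pairs with both genes at least 25 kb long gave -5.32 to -5.16 points in naive and -4.30 to -3.27 in EpiLC libraries, and the 1013 pairs with neither gene that long gave -0.61 to 1.25 and -0.03 to 0.39. The number of TSSs within 25 kb of the site ordered the pairs in the same way. Pairs with no TSS there (558) gave -5.14 (0.39), -4.87 (0.42) and -4.75 (0.42) in the naive control, dKO and dCD and -3.10 (0.25), -4.19 (0.23) and -3.12 (0.23) in the EpiLC libraries. Pairs with 3 or more TSSs (718) gave -0.27 (0.34), 1.60 (0.36) and 1.94 (0.36), and 0.62 (0.22), 0.31 (0.20) and 1.14 (0.20). T minus A content moved with both: right minus left it was -4.20 points with no TSS, -1.02 with 3 or more, -4.26 with both genes long and -1.32 with neither. With its part off, pairs without a TSS within 25 kb gave 1.53 to 2.73 points and pairs with 3 or more 1.55 to 3.70.

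The gap showed a difference that T minus A content shared less, with no steady trend. Gaps under 1 kb (547 pairs) gave -2.60 to -0.92 points, gaps of 1 to 5 kb (909 pairs) gave -3.77 to -1.76 points and gaps of 5 to 20 kb (1072 pairs) -0.52 to 0.39, although the T minus A difference was similar, -2.43, -2.71 and -2.22 in the same order. Without the T minus A part, gaps under 1 kb gave 1.62 to 2.96, gaps of 1 to 5 kb 1.04 to 2.67 and gaps of 5 to 20 kb 2.76 to 4.30, higher than both in each of the 6 libraries. Among CpG-rich promoters (observed over expected CpG of at least 0.6 within 500 bases of the TSS), pairs in which neither gene had one (641) gave 0.45 to 2.17 points with the T minus A part off, pairs with one such gene (1094) 2.72 to 3.96, and pairs with both (793) 1.92 to 3.66. Pairs without a CpG-rich promoter were lowest in each library. As counted, pairs with both gave -3.58 to -1.22 and pairs with none -2.57 to -0.87, beside a T minus A difference of -3.24 and -1.62.

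**Figure D4:**
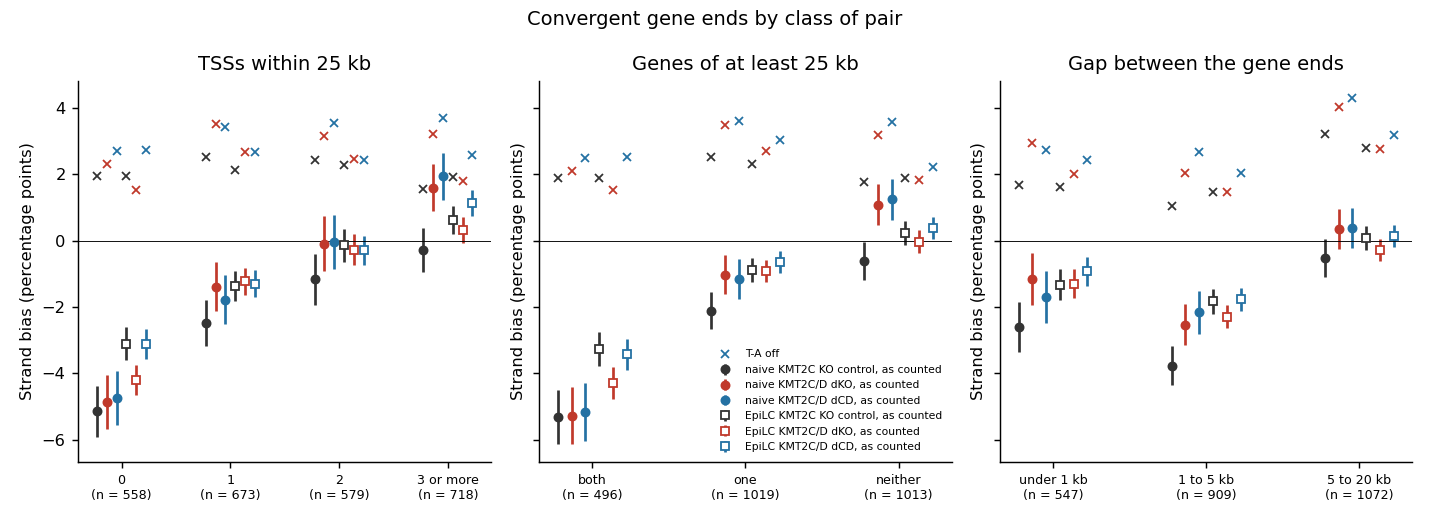
Mean strand bias of convergent sites in percentage points (y) by number of TSSs within 25 kb, by how many of the 2 genes are at least 25 kb long, and by gap (x). Circles are naive and squares EpiLC libraries as counted with 95% counting intervals, and crosses are the same libraries with the T minus A part off, which lie between 1.04 and 4.30 in all these classes.

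Single sites were mostly within counting error. A 95% interval below 0 was found at 12.1% of convergent sites in the naive control, against 6.88% of autosomal positions, at 8.98% against 6.1% in the naive dKO and at 9.49% against 6.58% in the naive dCD. In the EpiLC control, dKO and dCD it was 10.4% against 7.4%, 13.01% against 8.87% and 13.3% against 9.53%. Intervals above 0 were near or under the background: 6.37% against 7.7%, 6.49% against 6.73% and 7.67% against 7.49% in the naive libraries, and 7.48% against 8.08%, 9.53% against 9.72% and 9.30% against 10.2% in the EpiLC libraries. Of the 2528 sites, 379 (15.0%) were negative in all 6 libraries, against 10.7% of autosomal positions, and 277 (10.96%) in none, against 11.4%. Pairs kept much of their order between states: over 2535 pairs whose sides each held 30 or more summed naive reads, r between the summed naive and the summed EpiLC bias was 0.713, and 0.545 with the T minus A part off. The points share base content and depth, and r of the EpiLC bias with the T minus A difference was 0.595. With pairs ranked by the naive sum and split in 10 groups, the lowest group averaged -20.3 points there and -10.2 in EpiLCs, where 242 of 254 were negative, and the highest group averaged 17.7 and 8.62, where 21 of 254 were negative.

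The 9 pairs lowest and the 5 highest in the naive sum were chosen on those reads, so that only their EpiLC values are a separate reading. Cse1l/Stau1, with no TSS within 25 kb, gave -37.1, -59.3 and -33.4 points in the naive control, dKO and dCD and -18.5, -15.2 and -27.6 in EpiLCs, with a summed EpiLC value of -21.6 (95% interval -26.9 to -16.1). Its Crick share in EpiLCs fell from 54.4% on the left to 32.8% on the right, and with the T minus A part off -8.18 points remained. Olfr944/Olfr1537, 2 olfactory receptor genes on chromosome 9, gave -24.7 (-32.6 to -16.4) in the summed EpiLC reads but -3.29 with the T minus A part off, with a T minus A content of 8.68% on the left and -5.50% on the right. Myg1/Aaas on chromosome 15, where Aaas encodes the nuclear pore protein aladin, gave -15.2 (-20.8 to -9.44) in EpiLCs and -5.35 with that part off.
The other 6 were Nmt1/Plcd3 (a protein myristoyltransferase and a phospholipase C), Map3k13/Tmem41a, Tmem223/Tmem179b, Lef1/Hadh, BC049730/Gm4763 and Borcs5/Dusp16. Their summed EpiLC values ran from -12.97 to -7.11 points. All 9 pairs were negative in each of the 6 libraries and had a summed EpiLC interval below 0. With the T minus A part off 2 of them were positive in EpiLCs: Map3k13/Tmem41a (3.08) and Lef1/Hadh (0.73).

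The 5 highest pairs went the other way in every library. Lyn/Rps20 gave 62.2, 37.5 and 64.9 points in the naive control, dKO and dCD and 33.6, 26.0 and 40.2 in EpiLCs, with a summed EpiLC value of 33.5 (26.4 to 39.97) and 29.1 with the T minus A part off. Its Crick share in EpiLCs was 23.0% on the left, in the end of Lyn and part of the gap, and 56.5% on the right, where the 4332 bp Rps20 and its promoter lie. Insm1/Ralgapa2 on chromosome 2 followed with 24.2 (17.96 to 30.2) in EpiLCs, Irf2bp1/Foxa3 on chromosome 7 with 20.4 (14.1 to 26.4), Dlx6/Dlx5 on chromosome 6 with 20.2 (14.2 to 26.1) and Ap1b1/Gas2l1 on chromosome 11 with 13.04 (6.996 to 18.9). Insm1, Foxa3, Dlx5 and Dlx6 encode transcription factors of development. Each of the 5 had at least 1 TSS within 25 kb, as most convergent pairs did. Among the lowest pairs named, Myg1/Aaas (3), Olfr944/Olfr1537 (2), Map3k13/Tmem41a (1), Tmem223/Tmem179b (4) and BC049730/Gm4763 (2) also had TSSs there. Nmt1/Plcd3, Lef1/Hadh and Borcs5/Dusp16 had 0, like Cse1l/Stau1. With the T minus A part off the EpiLC values of the 5 highest pairs were 13.2 to 29.1.

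**Figure D5:**
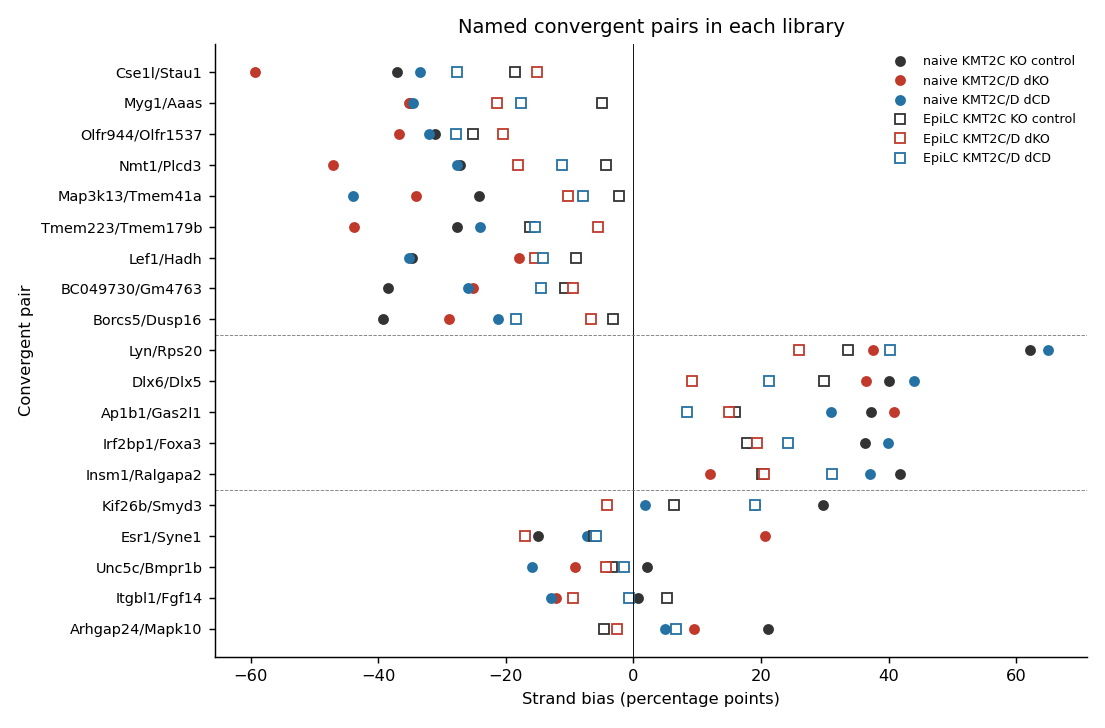
Strand bias in percentage points (x) of the 9 convergent pairs lowest and the 5 highest in the summed naive reads and of the 5 pairs with the longest shorter gene (y, top to bottom, groups split by dashed lines), with naive libraries as filled circles and EpiLC libraries as open squares. EpiLC squares of the first 9 pairs lie between -27.8 and -2.3 and those of the next 5 between 8.4 and 40.2, while the long pairs lie on both sides of 0.

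The 5 pairs with the longest shorter gene lay on both sides of 0 in 25 kb windows. Esr1/Syne1, the oestrogen receptor gene beside that of the nuclear envelope protein nesprin 1, gave -9.89 points (-16.65 to -2.995) in the summed EpiLC reads and 0.62 in the naive sum. Kif26b/Smyd3, a kinesin and a lysine methyltransferase gene, gave 6.52 (0.09 to 12.9) and 17.1. Unc5c/Bmpr1b (a netrin and a BMP receptor), Itgbl1/Fgf14 and Arhgap24/Mapk10 had EpiLC intervals that included 0. At 0 of these 5 did the naive and EpiLC sums both have an interval below 0.

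Gene lists were read by the genes they hold, beside a median over all convergent pairs of -2.01 to -0.78 points and a share of 52.7% to 55.9% of all convergent sites that were negative in a library. The 26 pairs with a cytoplasmic ribosomal protein gene averaged 10.3 (1.79), 6.05 (1.90) and 8.91 (1.93) points in the naive control, dKO and dCD and 3.96 (1.14), 2.32 (1.06) and 4.31 (1.06) in EpiLCs, with 7 to 11 of 26 negative. These 26 include Lyn/Rps20, the pair highest in the naive sum, whose values are given above and raise the means. Their medians were 1.498 to 8.38. The 48 pairs with a gene of the mitochondrial respiratory chain or ribosome had medians of -0.12 to 4.18, with 12 to 24 negative. The 70 measured zinc finger pairs, of 71, had medians of -0.72 to 1.75, with 29 to 36 negative. Without the T minus A part the means were 3.71 to 11.3 for the ribosomal, 1.86 to 7.57 for the mitochondrial and 1.33 to 4.21 for the zinc finger list, against 2.07 to 3.37 for all convergent sites. The mitochondrial mean in the EpiLC dKO (1.86 against 2.13) and the zinc finger mean in the EpiLC control (1.33 against 2.07) then lay below that of all sites.
The 16 pairs with a DNA replication gene had medians of -2.96 to 3.85, with 7 to 13 negative, and means of 1.40 to 4.197 without the T minus A part. Among them Topbp1/Cdv3, with the gene of a replication and checkpoint protein, gave -14.0 (-20.4 to -7.42) in the summed EpiLC reads, Rif1/Neb (a replication timing factor) -7.99 (-14.6 to -1.34), Tipin/Dis3l (fork protection) -7.70 (-13.4 to -1.96) and Akirin2/Orc3 (origin recognition) -6.70 (-12.8 to -0.56). The EpiLC intervals of the other 12 included 0. Such an interval below 0 was found at 22.9% of all convergent sites and at 16.1% of autosomal positions in the summed EpiLC reads, so that 4 of 16 is near the share of convergent sites in general. With the T minus A part off, these 4 gave -4.33, -0.26, -0.26 and -2.69.
The 4 pairs with a naive pluripotency gene were Nanog/Slc2a3, Klf2/Eps15l1, Tcl1b4/Tcl1 and Pou5f1/Tcf19, and their mean was 4.24 to 9.21 points over the 6 libraries (counting SE 2.66 to 4.93). Nanog/Slc2a3 was positive in 6 of 6, with 7.56 (1.63 to 13.4) in the EpiLC sum. The 4 pairs with a formative gene, Lef1/Hadh, Pou3f1/Utp11, Bves/Lin28b and Dhx8/Etv4, averaged -14.9 to -3.90 (counting SE 2.58 to 4.72). The medians of these 4 were -12.5 to -2.32. Lef1/Hadh, also among the pairs chosen as lowest in the naive sum, gave -34.6, -17.9 and -35.2 in the naive control, dKO and dCD. The naive means of the list thus rest in large part on that pair. The mean of these 4 without the T minus A part ran from -4.90 to 5.57 and was positive in 3 of 6 libraries. Bves/Lin28b, holding the RNA-binding protein LIN28B, gave -13.02 (-19.6 to -6.32) in the EpiLC sum and -0.74 with the T minus A part off. The EpiLC values of Lef1/Hadh are those given above, and Lef1, a transcription factor of Wnt signalling, spans 113886 bp.

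Between genotypes, the naive control stood lower than both mutants. In naive cells dKO exceeded control by 1.13 points (95% interval 0.60 to 1.65) and dCD exceeded it by 1.16 (0.63 to 1.69), with the mutant higher on 15 and 16 of 19 autosomes but at only 52.5% and 53.6% of the 2528 sites. With the T minus A part off these were 0.99 (0.45 to 1.52) and 1.27 (0.74 to 1.81). At tandem sites the same differences were -0.28 (-0.65 to 0.10) and 0.31 (-0.07 to 0.69), and the convergent exceeded the tandem difference by 1.41 (0.76 to 2.05) and 0.85 (0.20 to 1.4998). The EpiLC differences were -0.32 (-0.63 to -0.0046) for dKO and 0.13 (-0.19 to 0.44) for dCD, and with the T minus A part off 0.06 (-0.26 to 0.38) and 0.54 (0.23 to 0.86). In 10 kb windows the naive differences were 0.34 (-0.51 to 1.20) and 0.56 (-0.30 to 1.42). The EpiLC dCD difference turned negative in those windows, with an interval below 0. At the 558 sites with no TSS within 25 kb the naive differences were 0.27 (-0.85 to 1.39) and 0.39 (-0.74 to 1.52). Both naive differences share the 1 control library, whose own replicate spread is unknown.

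EpiLC minus naive was 1.24 points (0.81 to 1.66) in the control, -0.21 (-0.65 to 0.23) in the dKO and 0.20 (-0.24 to 0.64) in the dCD, of both signs over the 3 genotypes (exact sign-flip p = 0.75, where 0.25 is the smallest possible). The control was higher as EpiLCs on 19 of 19 autosomes but at only 52.5% of the 2528 sites. The T minus A slope of the control also fell from 1.76 to 1.20 between the states, and with that part off its difference was -0.04 (-0.47 to 0.40), while the dKO gave -0.96 (-1.41 to -0.52) and the dCD -0.77 (-1.22 to -0.32). The spread of Crick share over 50 kb bins beyond counting error was also larger in the naive libraries (12.6, 13.3 and 16.5 points) than in the EpiLC libraries (9.71, 10.6 and 12.3).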

How the data were processed

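OK-seq of 12 samples in 6 conditions was used. Per the labels' processing notes the authors used FastQC, Trim Galore, Bowtie2 and Picard, with the builds mm10 and hg19 listed; the methods give alignment to mm10. Whether duplicate reads were removed is not given in the sources used here. The authors deposited 1 track per condition with Watson and Crick read density in 1 kb bins, replicates summed. Every deposited value was a whole multiple of 1 read in 1000 bp (largest deviation 2.27e-13 of a read) and was taken as whole reads. Positions were read as bin ends, which put 0 reads in 66648 bins of N only, against 2990 reads if they were starts.

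The 81 bins with over 10 times the median count were left out. Python 3.11.15, numpy 2.4.6, pandas 2.3.3 and scipy 1.17.1 were used. Strand bias was averaged over sites. SEs and 95% intervals cover counting error only (Newcombe intervals at single sites), and PCR copies are not told from separate molecules. The T minus A slope was fitted on each bin minus 10 bins on either side, without the 2 nearest. Sites were not treated as replicates, so the methods' test over sites was not used. Pairs named are the 10 lowest (of which 1 is not reported here) and 5 highest in naive reads, the 5 with the longest shorter gene, and those of the replication, naive pluripotency and formative lists. Members and lists were chosen with earlier results of these data known. The procedure was tested on strands redrawn on the real reads with a known step and slope. Apart from the step at convergent sites the redrawn strands held no fork direction. Whether the correction also takes off fork signal that follows T minus A content was therefore not tested. Windows, read minimum, gaps, bins left out, thinning, chromosomes, base content and amplitude were varied.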

Additional observations from a re-analysis of the deposited data

Results flagged for a closer look

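At convergent sites the mutant minus control difference was not the same in the 2 states. For the KMT2C/D dKO the naive difference exceeded the EpiLC difference by 1.45 points (95% counting interval 0.83 to 2.06), and by 0.93 (0.31 to 1.55) with the T minus A part off. For the KMT2C/D dCD it did so by 1.03 points (0.42 to 1.65), and by 0.73 (0.11 to 1.35) with that part off. Both rest on the same control libraries, 1 per state, so that the values compare libraries and not conditions. The part of the control libraries in the difference was not tested. At sites with T minus A content within 1 point between the sides the order turned for the dCD. There control and dCD gave 2.68 and 3.13 points in naive cells and 2.06 and 3.03 in EpiLCs. The dKO gave 3.78 and 2.51 at these sites and kept its order.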

How the results depend on the processing

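Values are in percentage points, and for libraries they are read against a counting interval. The fall across convergent sites had a median over 6 libraries of -0.995, and leaving out each autosome in turn moved it between -1.17 and -0.91. It became 0.74 in windows of 50 kb, 2.37 with the T minus A part off and 1.90 with the slope on the bin itself. The following alternatives were chosen after seeing the data: slopes fitted over 50 kb from genes or within 25 kb of convergent sites (2.44 and 2.38), T minus A and G minus C parts off (2.21), sites with T minus A content within 1 point between the sides (2.85), and sites with no TSS within 25 kb. Convergent minus tandem (-4.01) depended on how the slope was fitted. With the slope on the bin itself it was -0.71 and negative in 6 of 6 libraries (exact sign-flip p = 0.03125). It became -0.20 with the T minus A part off as in the report, -0.12 and -0.28 with those fitted slopes, -0.34 with both parts off and -0.17 at the base-matched sites, these 5 with an exact sign-flip p above the threshold.

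In naive cells, KMT2C/D dKO and KMT2C/D dCD minus control (1.13 and 1.16) had intervals including 0 in 10 kb windows (0.34 and 0.56), at base-matched sites (1.11 and 0.45) and at sites with no TSS (0.27 and 0.39). The EpiLC value of KMT2C/D dKO minus control (-0.32) was -0.11 in 50 kb windows, -0.28 with 20 reads a side, -0.26 with reads summed over sites, -0.41 with libraries thinned to the smallest, -0.29 at gaps of 0 to 5 kb, -0.22 with no gene in the gap, -0.23 without chromosomes 2, 3, 4, 6 and 18, -0.23 at the highest with 1 autosome left out, -0.21 divided by amplitude and -0.00765 with the slope on the bin itself, all with intervals including 0. It was positive with the T minus A part off (0.0603), with slopes far from genes or near sites (0.0496 and 0.10), with both parts off (0.0672) and at base-matched sites (0.45). KMT2C/D dCD minus control in EpiLCs (0.13) was -0.53 in 10 kb windows, with an interval below 0 (-1.04 to -0.013). It was -0.105 thinned and -0.0155 at sites with no TSS, both with intervals including 0. Its interval was above 0 in 50 kb windows (0.36), with the T minus A part off (0.54), the slope on the bin itself (0.48), slopes far from genes or near sites (0.54 and 0.62), division by amplitude (0.29) and base-matched sites (0.97).

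EpiLC minus naive in the control (1.24) was -0.0353 with the T minus A part off, 0.18 with the slope on the bin itself, -0.00165 and -0.28 with slopes far from genes or near sites, 0.22 with both parts off and -0.62 at base-matched sites. In the KMT2C/D dKO (-0.21) the interval lay below 0 in 50 kb windows (-0.33), divided by amplitude (-0.49) and, in the same order of base settings, at -0.96, -0.83, -0.96, -1.06, -0.70 and -1.27. It was positive, with the interval including 0, in 10 kb windows (0.659), with reads summed (0.0385), at gaps of 0 to 5 kb (0.0896) and at sites with no TSS (0.679). In the KMT2C/D dCD (0.20) it was -0.77, -0.55, -0.76, -0.86 and -0.61 under the first 5 base settings, 0.56 with reads summed and 1.63 at sites with no TSS. It was also negative, with the interval including 0, in 50 kb windows (-0.105), thinned (-0.0177), divided by amplitude (-0.0512) and at base-matched sites (-0.102). The base content settings take off or match base content by construction, and why values moved between settings was not tested. The other 108 values kept direction and side of the threshold. No paired analysis was possible because the deposited tracks sum the replicates of a condition, so that no replicate could be left out.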
